A study of Homo sapiens with 2 samples.

Results

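The mRNAs of 10 tubulin isotypes were followed in RNA captured with an antibody to LRPPRC, a leucine-rich pentatricopeptide repeat protein that binds RNA in mitochondria and cytoplasm. The isotypes were taken by name from the table of all genes. They are 4 α-tubulins (TUBA1A, TUBA1B, TUBA1C and TUBA4A), 5 β-tubulins (TUBB, TUBB2A, TUBB3, TUBB4B and TUBB6) and 1 γ-tubulin (TUBG1). All 10 had a value, each on a single row, out of 16770 distinct gene names on 16802 named rows, and 21262 rows in all. Lysates of wild-type A549 cells, an epithelial line from a lung adenocarcinoma, were incubated with 2 μg of antibody to LRPPRC, with no treatment named in the labels, which gave 2 sequenced RIP libraries of a single condition. The series description calls the replicates technical and the paper calls them biological, so the spread between them may be technical only. Neither input nor IgG libraries were analysed here, so each value is a level in the precipitate and not an enrichment over the cell. Fewer captured molecules and fewer molecules in the cell cannot be told apart. The unit is FPKM, fragments scaled by transcript length and by how many fragments of a library mapped. Its sum over all rows was 196627 for replicate 1 and 194839 for replicate 2, and the sequencing depth is unknown. With 2 values per gene no test was made, and errors below are SDs over the 2 libraries.

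Microtubules are hollow polymers of heterodimers that hold α- and β-tubulin in equal numbers. γ-tubulin is not part of the wall. It sits in ring complexes at centrosomes, where it nucleates new microtubules. Each class is encoded by several genes whose proteins, the isotypes, differ mostly at the acidic carboxy-terminal tail. Cells also limit tubulin synthesis through the mRNA. When free heterodimers are in excess, TTC5 recognises the amino terminus of nascent α- and β-tubulin at the ribosome, and the mRNA is degraded while it is translated.

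The start of the coding sequence is shown because it encodes this recognition signal and because it shows how alike the isotypes are. The first 30 coding bases of the canonical transcript are given 5′ to 3′, from GENCODE 44 on GRCh38, with the first 12 in capitals.
TUBA1A: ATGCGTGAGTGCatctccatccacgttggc 
TUBA1B: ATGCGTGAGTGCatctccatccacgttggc 
TUBA1C: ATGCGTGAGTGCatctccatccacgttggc 
TUBA4A: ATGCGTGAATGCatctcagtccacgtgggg 
TUBB: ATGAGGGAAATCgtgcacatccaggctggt 
TUBB2A: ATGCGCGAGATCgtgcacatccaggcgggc 
TUBB3: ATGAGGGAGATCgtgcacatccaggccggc 
TUBB4B: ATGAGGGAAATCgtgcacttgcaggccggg 
TUBB6: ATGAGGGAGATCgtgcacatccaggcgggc 
TUBG1: ATGCCGAGGGAAatcatcaccctacagttg

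The fourth codon was TGC in the 4 α-tubulins and ATC in the 5 β-tubulins. TUBA1A, TUBA1B and TUBA1C had the same 30 bases, and TUBG1 had a start of its own. Over the whole coding sequence TUBA1A and TUBA1B were 97.2% identical, TUBA1B and TUBA1C 96.8%, and TUBA1A and TUBA1C 95.9%. TUBA4A was 84.4% to 85.7% identical to these 3 genes. The 10 pairs of β-tubulins were 81.0% to 87.7% identical, and pairs from different classes 51.6% to 57.6%.

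TUBB, the class I β-tubulin, stood far above every other isotype in LRPPRC RIP. It had 809 FPKM in replicate 1 and 803 in replicate 2, a mean of 806 ± 4.13 (SD, n = 2), and ranked 8 among the named genes. This was 7.28 ± 0.159 times the level of TUBA1B, the next isotype (SD of the ratio, n = 2), and 2.45 and 2.55 times the sum of the other 9 in replicates 1 and 2. The genes just above it in rank were HSP90AA1, a cytosolic chaperone, at 881 ± 56.1 FPKM, and RPS3A, a ribosomal protein, at 886 ± 10.5. Just below it were ATP5G2, a subunit of the ATP synthase ring, at 691 ± 7.64 FPKM, and YWHAZ, a 14-3-3 protein, at 688 ± 51.0 (SD, n = 2). TUBB lies at chr6:30717435-30725538 on the plus strand of GRCh38, and the 2515 bases of its canonical mRNA, from 4 exons, divide into 1335 coding bases, 155 before them in the 5′ UTR and 1025 after them in the 3′ UTR.

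**Figure D1:**
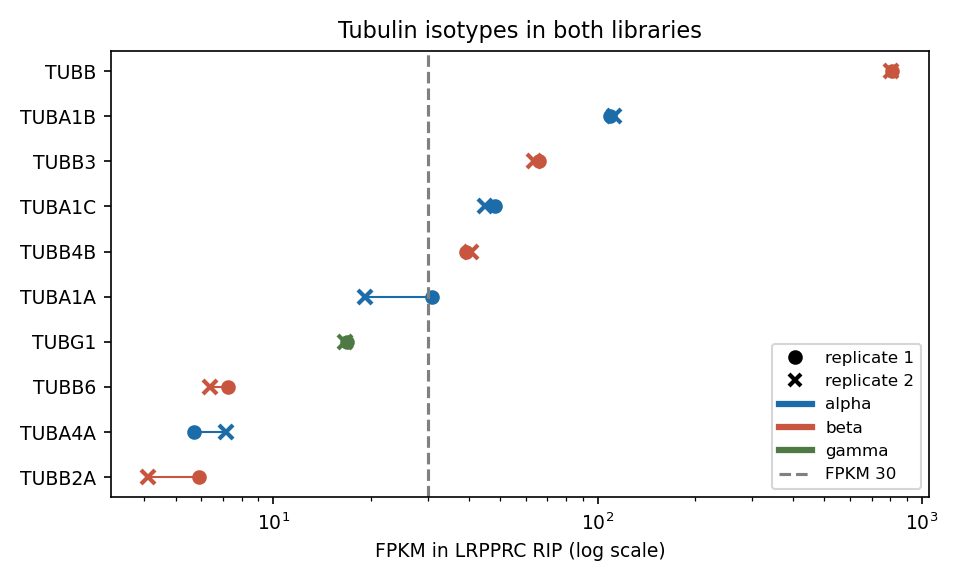
FPKM of each isotype in LRPPRC RIP (x axis, log scale), ordered by mean from the top (y axis). Replicate 1 is drawn as circles and replicate 2 as crosses, colours give the class and the dashed line is FPKM 30. TUBB lies near 806 FPKM, and the libraries are far apart for TUBA1A, on either side of the line.

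Of the 10 isotypes, 5 had a mean above FPKM 30, the threshold used in the study, whereas 13.6% of the 10441 named genes with at least 1 FPKM in both libraries did. The background was 10.6% with a minimum of 0.1 FPKM and 8.46% over all named genes. The 5 isotypes were 3 β-tubulins (TUBB, TUBB3 and TUBB4B) and 2 α-tubulins (TUBA1B and TUBA1C), and all 5 were above it in both libraries. The median over the 10 isotypes was 32.5 FPKM, against 6.81 over the same named genes. The isotypes had been chosen with earlier results of these data known, so the count is a description. TUBB4B, at 39.9 FPKM, was the lowest above the threshold, and TUBA1A, whose libraries lay on either side of it, was the highest below it by mean.

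Among the α-tubulins, TUBA1B, which is expressed in most cell types, had 109 FPKM in replicate 1 and 112 in replicate 2, a mean of 111 ± 1.85 (SD, n = 2). TUBA1C had a mean of 46.7 ± 2.43 FPKM (SD, n = 2), with replicate 1, at 48.4, above replicate 2. TUBA1A, best known from migrating neurons, had 30.9 and 19.2 FPKM, with an SD of 8.27 (n = 2). TUBA4A, which is abundant in platelets, had 5.70 and 7.13 FPKM, a mean of 6.42 ± 1.01 (SD, n = 2). The order of the 4 α-tubulins was the same in both libraries, and their values did not overlap. TUBA1B made up 58.7% ± 3.42 of the summed α-tubulin FPKM, TUBA1C 24.7% ± 0.262, TUBA1A 13.2% ± 3.84 and TUBA4A 3.41% ± 0.678 (SD, n = 2).

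TUBA1A, TUBA1B and TUBA1C are neighbours on chromosome 12. TUBA1A lies at chr12:49184686-49189080 and TUBA1B at chr12:49127782-49131397, both on the minus strand, and TUBA1C at chr12:49188736-49274600 on the plus strand, so that the gene spans of TUBA1A and TUBA1C overlap on opposite strands. The library kit keeps strand, and the sources used here do not say whether strand was used in counting. TUBA4A lies at chr2:219249710-219277902 on the minus strand.

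Among the β-tubulins, TUBB3, the class III isotype used as a marker of neurons, came second. It had 65.9 FPKM in replicate 1 and 63.9 in replicate 2, a mean of 64.9 ± 1.43 (SD, n = 2), and TUBB4B had 39.2 and 40.7, a mean of 39.9 ± 1.05 (SD, n = 2). TUBB6 had 7.25 and 6.36 FPKM, a mean of 6.81 ± 0.624 (SD, n = 2). TUBB2A, the lowest of the 10 by mean, had 5.91 and 4.11 FPKM, a mean of 5.01 ± 1.27 (SD, n = 2). TUBB6 and TUBB2A were thus the lowest of their class, and the values of each lay below FPKM 10. TUBB took 87.4% ± 0.159 of the summed β-tubulin FPKM, TUBB3 7.04% ± 0.106, TUBB4B 4.33% ± 0.144, TUBB6 0.738% ± 0.0625 and TUBB2A 0.543% ± 0.134 (SD, n = 2).

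**Figure D2:**
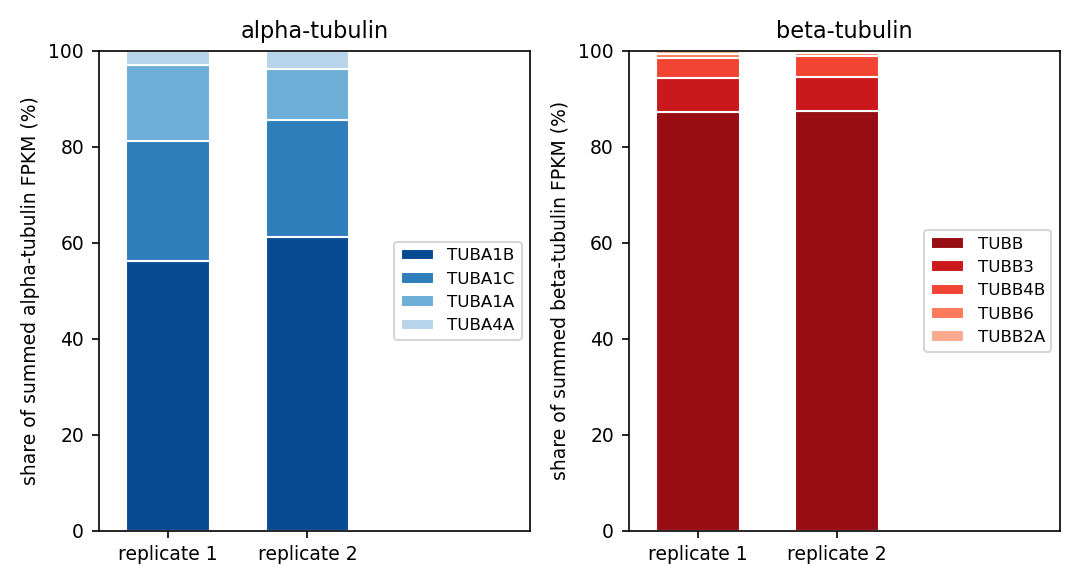
Share of each isotype in the summed FPKM of its class (y axis, %), for α-tubulin (left) and β-tubulin (right), with 1 bar per library (x axis). TUBB fills 87.2% and 87.5% of the β bars, whereas the α bars are divided among TUBA1B, TUBA1C and TUBA1A, whose part is 15.9% in replicate 1 and 10.5% in replicate 2.

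Each neuronal marker listed was below TUBB3. Of 8 markers, INA, a neuronal intermediate filament protein, had 29.7 ± 0.120 FPKM (SD, n = 2). RBFOX3, at a mean of 2.78 FPKM, and SNAP25, at 2.43, were above 1 FPKM in both libraries. NEFL, SYP, DCX, GAP43 and STMN2 were below 1 FPKM in both. The 8 summed to 35.1 FPKM in replicate 1 and 35.5 in replicate 2. Epithelial markers were led by KRT8 at 337 ± 3.11 FPKM and KRT18 at 51.1 ± 0.755 (SD, n = 2). KRT7 had a mean of 30.5 FPKM, with 31.5 in replicate 1 and 29.6 in replicate 2, on either side of FPKM 30. Of the 6 listed, 5 of them with at least 1 FPKM in both libraries, 3 had a mean above FPKM 30, beside 13.6% of the named genes. So short a list gives a description only. Lower were KRT19 at a mean of 12.1 FPKM, CDH1 at 1.33 and EPCAM at 0.430. Of 5 blood, stromal and endothelial markers, 4 had a value, the highest being COL1A2 at 1.36 FPKM. Both libraries are of the cultured line A549, so these markers describe RNA captured from that line. The reason for the level of TUBB3 in it was not tested.

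TUBB3 lies at chr16:89921392-89938761, TUBB4B at chr9:137241287-137243707 and TUBB6 at chr18:12307669-12344320, all on the plus strand, and TUBB2A at chr6:3153497-3157544 on the minus strand. Another protein-coding gene of GENCODE 44 with no symbol, ENSG00000198211, overlaps TUBB3 on the same strand. Its transcripts hold 92.5% of the 100-base windows of the TUBB3 mRNA, so the level of TUBB3 depends on how fragments were divided between these gene models.

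TUBG1, the main γ-tubulin of dividing cells, had 16.9 FPKM in replicate 1 and 16.6 in replicate 2, a mean of 16.8 ± 0.219 (SD, n = 2). It was below FPKM 30 in both libraries and ranked 2633 among the named genes. It lay below TUBA1A and above TUBB6, without overlap. TUBA1B was 6.61 ± 0.197 times as high (SD of the ratio, n = 2). TUBG1 lies at chr17:42609641-42615238 on the plus strand, with 11 exons, against 4 in each of the other 9 isotypes.

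Compared by class, the 5 β-tubulins summed to 927 FPKM in replicate 1 and 918 in replicate 2, the 4 α-tubulins to 194 and 183, and TUBG1 stood alone for the γ class. The β sum was 4.89 ± 0.169 times the α sum (SD of the ratio, n = 2), and this rested on TUBB. Without TUBB the β sum was 117 ± 2.27 FPKM and the ratio 0.618 ± 0.0136 (SD, n = 2), below 1 in both libraries. The β sum was 55.1 ± 0.337 times and the α sum 11.3 ± 0.321 times the level of TUBG1 (SD, n = 2). Summed over all 10 isotypes, tubulin took 0.579% of all FPKM of replicate 1 and 0.574% of that of replicate 2.

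In the order of the 10 isotypes, both libraries of each isotype from TUBB to TUBG1 lay above both of the next lower one, the closest being TUBA1C at 1.17 times TUBB4B. The exceptions were the 3 lowest. TUBB6 and TUBA4A overlapped, as did TUBA4A and TUBB2A, so the place of TUBA4A does not hold beyond the spread of the libraries, whereas TUBB6 was above TUBB2A in both. Multiplied by the length of the canonical transcript, which approximates fragments and not a level per length, TUBA1C (132 FPKM times kb) came before TUBB3 (111), since its transcript is longer, at 2823 bases against 1706.

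The libraries agreed closely for the isotypes above FPKM 30 and less so for TUBA1A. On log2(FPKM + 1), the difference of replicate 1 minus replicate 2 was 0.01 for TUBB, -0.03 for TUBA1B, 0.04 for TUBB3, 0.10 for TUBA1C, -0.05 for TUBB4B and 0.03 for TUBG1. The difference of TUBA1A was 0.66, and its FPKM, with no pseudocount, was 1.61 times as high in replicate 1. It was the only one of the 7 isotypes with a mean of at least 10 FPKM to differ by over 1.5 times on this scale, as did 0.772% of the 4016 named genes at that level. It stood 23 among those genes by the size of the difference. The median absolute difference was 0.04 over these 7 isotypes and also 0.04 over the named genes. Of the 3 lower isotypes, TUBB2A differed by 0.43, TUBA4A by -0.28 and TUBB6 by 0.16. The sum of TUBA1A, TUBA1B and TUBA1C was 189 FPKM in replicate 1 and 176 in replicate 2, while TUBA1B alone was slightly higher in replicate 2.

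**Figure D3:**
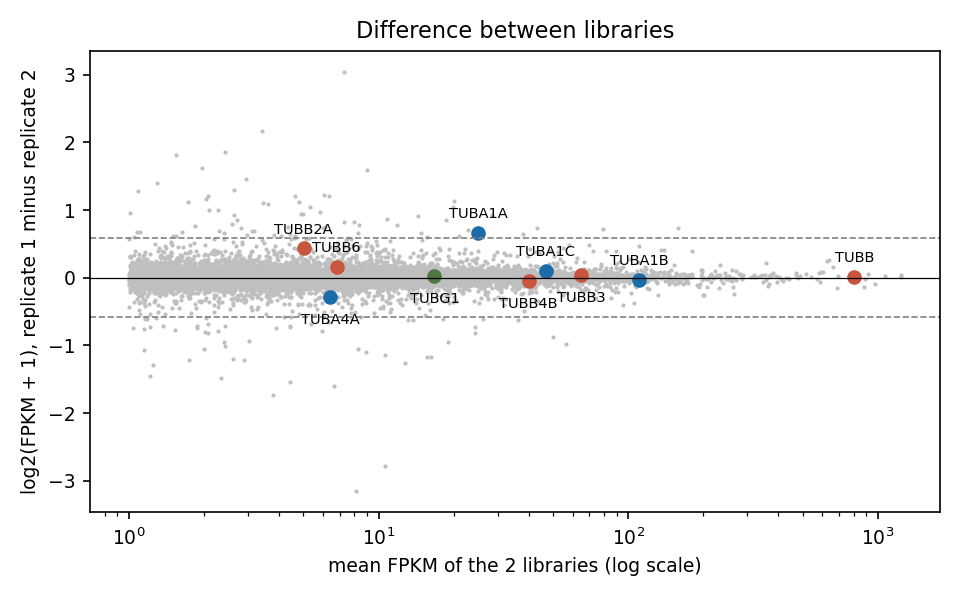
Difference of log2(FPKM + 1) between replicate 1 and replicate 2 (y axis) against the mean FPKM (x axis, log scale). Gray points are named genes with a mean of at least 1, coloured points are the isotypes (blue α, red β, green γ), and the dashed lines mark a 1.5-fold difference. TUBA1A, at 0.66, lies above the upper line and the other 9 lie between the lines.

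The isotypes differ in how much of their mRNA can be told from other sequences, and reads from the shared parts may be split among genes. Each canonical transcript was cut into windows of 100 bases, and a window was counted as found nowhere else when it matched no transcript of another gene and no place in the genome outside its own locus. For TUBB this held for 94.6% of windows, and its shared windows all matched the pseudogene TUBBP1 (5.42%). For TUBA1B it held for 62.8%, with 18.5% of windows also in TUBA1A and 18.6% in TUBA1C. It held for 78.8% in TUBA1A and 87.7% in TUBA1C. TUBB2A was lowest, at 44.4%, with 53.7% of its windows also in TUBB2B, a close paralogue that had 3.89 and 4.33 FPKM. TUBB3 (94.7%, leaving out the gene that overlaps it), TUBB4B (97.0%) and TUBA4A (98.1%) had few shared windows, and TUBB6 had none. TUBG1 shared 15.0% of its windows with its paralogue TUBG2. The sources used here do not give the read length. With windows of 50 bases the share was 37.3% for TUBA1B and 35.4% for TUBB2A, and with 150 bases 80.8% and 51.3%. With 50 bases TUBB had 76.6%, TUBA1C 72.6%, TUBG1 70.0% and TUBA1A 50.7%. The levels of isotypes with shared windows are uncertain to that extent. With the overlapping gene ENSG00000198211 counted, this holds most of all for TUBB3, with 92.5% of its 100-base windows in that gene. With that gene left out, it holds most of all for TUBB2A and TUBA1B. The part of shared reads in the difference of TUBA1A between libraries was not tested.

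The other tubulin genes were low. Of 14 listed, 11 had a value, 5 of them with at least 1 FPKM in both libraries. None was above FPKM 30, beside 13.6% of the named genes at that level, and so few genes cannot tell 0 from that share. TUBD1, which encodes δ-tubulin, had 12.3 FPKM in replicate 1 and 11.7 in replicate 2. TUBE1, which encodes ε-tubulin, had 4.36 ± 0.165 FPKM, TUBB2B 4.11 ± 0.313 and TUBG2 3.79 ± 0.478 (SD, n = 2), and TUBB4A had 1.48 and 1.52 in the 2 libraries. δ- and ε-tubulin act in centrioles. The remaining 6 genes were below 1 FPKM.

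Of the listed genes that act on tubulin, none was as high as TUBB, and only MAP4 was as high as TUBA1B. Of the 3 genes of the autoregulation of tubulin mRNA, CNOT11, a subunit of the CCR4-NOT deadenylase, had 26.4 ± 1.31 FPKM, SCAPER, which recruits it, 6.30 ± 0.271, and TTC5 4.70 ± 0.0383 (SD, n = 2). None was above FPKM 30. Of 13 folding factors, tubulin cofactors and prefoldin subunits, 12 of them with at least 1 FPKM in both libraries, none had a mean above FPKM 30 either. Both counts stand beside 13.6% of the named genes at that level, and the lists are too short to tell 0 from that share. TBCE, which handles α-tubulin, was the highest, at 29.6 ± 0.888 (SD, n = 2), with replicate 1 below the threshold and replicate 2, at 30.3, above it, and was named after its value was seen. The list median, over all 13 with no minimum, was 6.28 FPKM. That of the named genes, over those with at least 1 FPKM in both libraries, was 6.81.

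Of 12 genes of the γ-tubulin complex and its anchors, 9 of them with at least 1 FPKM in both libraries, 1 was above FPKM 30, near the background of 13.6%. This was CDK5RAP2, which tethers the complex to centrosomes, at 39.6 ± 0.143 FPKM (SD, n = 2), over TUBG1 itself. The list median was 9.40 FPKM. Of 23 genes of tubulin modification, 15 of them with at least 1 FPKM in both libraries, 1 was above FPKM 30, also beside 13.6%, namely TPGS2, a subunit of the polyglutamylase complex, at 63.1 ± 0.876 FPKM (SD, n = 2). The list median was 1.55 FPKM. Of 35 microtubule-associated proteins, 32 of them with at least 1 FPKM in both libraries, 13 were above FPKM 30, beside the 13.6% of the named genes at that level, and the list median was 13.8 FPKM. They were led by MAP4, a stabiliser of microtubules, at 112 ± 1.80 FPKM, STMN1, which sequesters free heterodimers, at 99.1 ± 1.88, MAP1B at 97.5 ± 2.16 and MAP7D1 at 88.1 ± 3.37 (SD, n = 2). MAP4 and TUBA1B overlapped, at 111 to 113 and 109 to 112 FPKM.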

How the data were processed

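RNA from anti-LRPPRC RIP of A549 cells was sequenced in 2 libraries. The deposited table gives FPKM for each gene in each of them. Per the paper and the submitters' processing notes, adapters were removed with cutadapt 1.18, reads were aligned to GRCh38 with HISAT2 2.1.0, sorted with SAMtools and quantified with StringTie 1.3.3b on an Ensembl annotation, each replicate by itself. Of the rows, 4460 were genes added by assembly. FPKM divides by transcript length, so levels of isotypes depend on the transcript model, and reads shared by near-identical isotypes may be assigned to either. The depth of the libraries is unknown.

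Means and SDs of both libraries, ranks, sums per class, shares and ratios within each library, and log2(FPKM + 1) differences between libraries were computed with Python 3.11.15, numpy 2.4.6 and pandas 2.3.3. Where a name had several rows, the row with the higher mean was used (32 rows repeat a name). No test was made. The isotypes, gene lists and named genes were chosen with earlier results of these data known. Named are the 10 isotypes, other tubulin genes of at least 1 FPKM, genes above FPKM 30 in each list (the 4 highest where there were more), the autoregulation genes, the highest marker of each cell type, and the 2 genes on each side of TUBB in rank. TBCE and the other markers were named after their values were seen. Gene models, coding identity (global alignment, Biopython 1.88) and windows came from GENCODE 44 on GRCh38, a later annotation than that of the authors. Windows were compared with the sense strand of all transcripts and both strands of the chromosomes, by exact match. SVBP was matched by its older symbol CCDC23. Alternatives were each library alone, thresholds of 20 and 50 FPKM, other backgrounds, TPM, pseudocounts of 0.1 and 0.01, multiplication by transcript length, and other members of a class. PTPRC and 3 tubulin genes (TUBA3C, TUBA4B and TUBB8B) had no value under those names.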

Additional observations from a re-analysis of the deposited data

How the results depend on the processing

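With a single library the median over the 10 isotypes was 29.9 to 35.0 FPKM, 5 or 6 isotypes were above FPKM 30, TUBA1B made up 56.3% to 61.1% of the α sum, TUBB 87.2% to 87.5% of the β sum, and the β sum was 4.77 to 5.01 times the α sum. At FPKM 50, 3 isotypes and 6.89% of the named genes were above the threshold, because the threshold itself differs. Without TUBB the ratio of β to α turned to 0.618. With FPKM multiplied by transcript length the ratio was 6.06, TUBA1B had 49.1% and TUBB 91.3%, because the division by length was removed. With all listed β genes TUBB had 86.8%. TPM, a change of unit, gave a median of 166. Among isotypes with a mean of at least 30 FPKM, 0 differed by over 1.5 times between the libraries, because TUBA1A lies below that mean. TUBA1A was past 1.5 times with both other pseudocounts and on the TPM scale. No paired analysis was possible because the 2 libraries are of the same condition. Depth is unknown, so the precision of the lower isotypes cannot be stated beyond the spread of 2 libraries.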
